A study of Mus musculus with 20 samples.

Results

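Transcripts of the epidermal growth factor (Egf) ligands and of the ErbB receptors were followed in mouse ventral prostate by bulk RNA sequencing. The set holds 10 genes chosen by symbol. They are the 6 ligand genes Egf, Areg, Ereg, Hbegf, Tgfa and Btc and the 4 receptor genes Egfr, Erbb2, Erbb3 and Erbb4. All 10 are among the 43472 genes of the deposited count table, and 8 of them passed the filter on low counts, which 15261 genes passed. The 8 had at least 10 normalized counts in every one of the 20 libraries, and Areg and Ereg did not pass. Every mouse had been orchidectomised, so all groups share the loss of testicular androgen. Wild type C57BL/6J males (WT) and ARNoC/Y males (ARNoC) then received vehicle or testosterone for 4 days, which gave 4 groups of 5 libraries. ARNoC stands for an altered androgen receptor that has lost the contact between its N-terminal and C-terminal parts, and the labels name no Cre or tissue-specific promoter. The sources used here do not state ages, the strain background of ARNoC, the testosterone dose or whether each library came from 1 animal, so a p-value reflects how much these libraries vary, which may be technical.

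The ligands of this family are made as precursors anchored in the cell membrane and are released by proteases, after which they bind receptors on the same or on neighbouring cells. Egf, Tgfa and Areg bind Egfr, while Hbegf, Btc and Ereg bind both Egfr and Erbb4. Erbb2 has no known ligand of its own and serves as the favoured partner in receptor dimers, and Erbb3, which binds neuregulins, has little kinase activity and signals through its partners. In the prostate, Egf is a component of the secreted fluid, and the ErbB receptors lie on epithelial and stromal cells.

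Values are normalized counts (raw counts over the library's size factor), given as mean ± SD over 5 libraries. Libraries held 8861646 to 21600352 counts, and no 2 libraries of a group matched within sampling noise (40 pairs, chi-square over its degrees of freedom 7.25 to 41.2). The 10 most abundant genes held 6.81 to 10.4% of a vehicle library and 18.4 to 28.1% of a testosterone library. The tissue label was checked on marker genes of prostate and seminal vesicle. No set for another prostate lobe was included, so the lobes cannot be told apart by it. Summed over 6 genes of prostate secretion (Spink3, Sbp, Sbpl, Pbsn, Mme and Tgm4), the normalized counts lay between 350600 and 3596000. Those of 7 seminal vesicle genes reached at most 50.68, with Svs3a at 0 in every library. WT testosterone library 5 and ARNoC vehicle library 5 stood apart in the urothelial genes Upk2 (213 and 198.2, against at most 21.37 elsewhere) and Upk3a (243 and 193.5, against at most 2.13), while Upk1a was at 3328 or more in all 20. The urothelial genes Upk1b and Upk3b did not set this pair apart. Upk1b lay at 1600 and 3854 in the pair and at 4639 in ARNoC vehicle library 4. Upk3b lay at 342 and 162.1 in the pair and at 318.5 in ARNoC testosterone library 3. A change within the receptor protein leaves no mark on counts per gene, and the genotype labels could not be tested.

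Egf was by far the most abundant ligand transcript, and Erbb3 and Erbb2 were the most abundant receptor transcripts. On the scale of normalized counts per kilobase of annotated exon, the mean over the 20 libraries was 936 for Egf, 429 for Erbb3, 381 for Erbb2, 62.6 for Erbb4 and 40.9 for Egfr. The same level was 37.9 for Tgfa, 19.1 for Hbegf, 12.3 for Btc, 0.822 for Areg and 0.097 for Ereg. Egf lay above Erbb3 within each of the 20 libraries, Erbb2 above Erbb4 within each, and Tgfa above Hbegf within each. Other neighbours in this order were close. The length was the union of all annotated exons of a gene, and the transcripts in use were not tested. The order of close genes and the shares per kilobase depend on that length. Erbb3 exceeded Erbb2 in 17 of 20 libraries with a median ratio of 1.16, Egfr exceeded Tgfa in 14 of 20 with a median ratio of 1.12, and Hbegf exceeded Btc in 19 of 20. Erbb4 exceeded Egfr in 17 of 20 libraries and in all 10 with testosterone. Egf supplied 90.7% ± 1.81 of the summed ligand level per kilobase in WT with vehicle, 94.5% ± 1.33 in WT with testosterone, 91.4% ± 1.87 in ARNoC with vehicle and 94.8% ± 0.991 in ARNoC with testosterone (SD, n = 5 each).

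**Figure D1:**
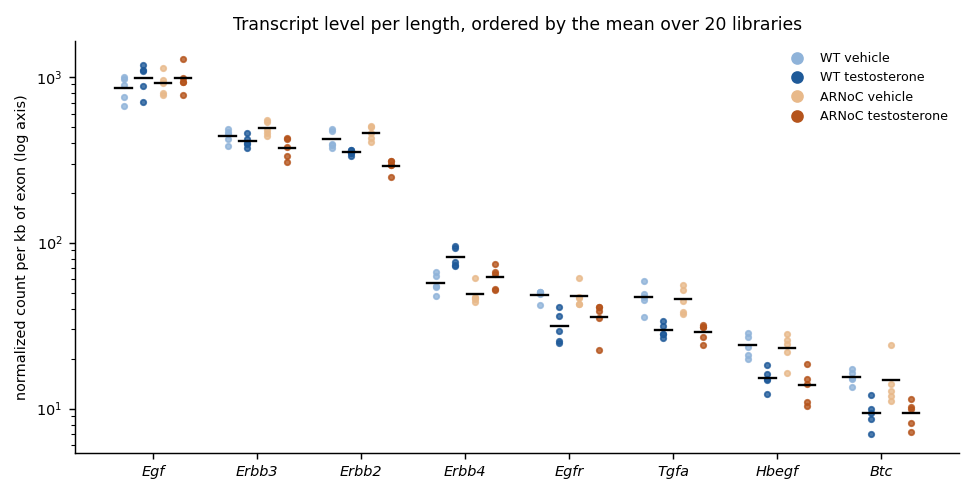
Transcript level per length of the 8 tested ligand and receptor genes, as normalized counts per kilobase of exon on a log axis, with 1 point per library, colours for the 4 groups and a black bar at each group mean. Egf lies above all others within every library, Erbb3 and Erbb2 come next, and Erbb4, Egfr, Tgfa, Hbegf and Btc lie below both.

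The start regions of 5 members are shown because they span the patterns described here: Egf, abundant in every group, Areg, near 0 in most libraries, Tgfa and Egfr, lower with testosterone, and Erbb4, higher with testosterone. Windows of 7 of the 10 members were searched, taken from the RefSeq promoter table (build GRCm38.p6, the same assembly as mm10). A window runs from 250 bases before to 50 bases after a gene's start, 5′ to 3′ on the strand of the gene. Start regions of the other members were not searched, so no statement on motifs covers them. Capitals mark matches to any of 7 motifs searched on both strands.
Egf, chr3:129755273-129755572, minus strand: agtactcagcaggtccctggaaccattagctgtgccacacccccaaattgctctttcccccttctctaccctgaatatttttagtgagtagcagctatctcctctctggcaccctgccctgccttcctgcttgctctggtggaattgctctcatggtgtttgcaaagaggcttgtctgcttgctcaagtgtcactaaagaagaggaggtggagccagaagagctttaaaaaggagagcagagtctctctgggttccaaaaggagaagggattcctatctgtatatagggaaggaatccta
Areg, chr5:91139349-91139648, plus strand: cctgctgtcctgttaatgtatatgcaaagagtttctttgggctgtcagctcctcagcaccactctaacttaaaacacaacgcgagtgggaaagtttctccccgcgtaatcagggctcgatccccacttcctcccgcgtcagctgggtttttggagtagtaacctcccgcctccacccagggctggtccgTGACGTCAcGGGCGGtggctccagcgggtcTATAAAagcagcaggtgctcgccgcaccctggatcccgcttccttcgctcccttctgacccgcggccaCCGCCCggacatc
Tgfa, chr6:86194972-86195271, plus strand: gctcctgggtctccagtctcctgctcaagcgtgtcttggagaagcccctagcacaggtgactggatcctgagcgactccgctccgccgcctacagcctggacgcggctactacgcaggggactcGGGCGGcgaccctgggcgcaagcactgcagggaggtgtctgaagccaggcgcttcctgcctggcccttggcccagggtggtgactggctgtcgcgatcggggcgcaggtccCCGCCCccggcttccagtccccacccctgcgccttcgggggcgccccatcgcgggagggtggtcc
Egfr, chr11:16751953-16752252, plus strand: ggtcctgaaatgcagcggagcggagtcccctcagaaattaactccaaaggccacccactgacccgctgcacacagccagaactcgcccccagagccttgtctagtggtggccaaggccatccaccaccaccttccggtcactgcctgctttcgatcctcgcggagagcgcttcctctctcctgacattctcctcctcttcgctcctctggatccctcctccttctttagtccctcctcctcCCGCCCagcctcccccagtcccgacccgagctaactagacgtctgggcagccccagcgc
Erbb4, chr1:69108010-69108309, minus strand: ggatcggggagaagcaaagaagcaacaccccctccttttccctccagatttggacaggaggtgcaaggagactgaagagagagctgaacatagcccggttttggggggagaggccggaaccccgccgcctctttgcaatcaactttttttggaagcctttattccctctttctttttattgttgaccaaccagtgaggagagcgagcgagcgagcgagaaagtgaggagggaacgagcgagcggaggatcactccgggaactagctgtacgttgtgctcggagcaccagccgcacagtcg

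The motifs were the steroid receptor half-site AGAACA, the palindromic receptor element GNACA and TGTNC set 3 bases apart, which can overlap the half-site, the cyclic AMP response element TGACGTCA, the AP-1 site TGANTCA, the GC box GGGCGG, the TATA box TATAAA and the ETS site CCGGAAGT. None of the 8 windows of the 7 members held AGAACA, which is in 19% of all 32851 windows of this length, or the palindrome, which is in 0.475%. TGANTCA (7.81%) was in none of them, and CCGGAAGT (3.89%) was in the second Egf window alone, from base -45. The Areg window held TGACGTCA from base -61 (1.79% of all windows hold it), TATAAA from base -31 (13.6%) and the GC box from bases -52 and 38. Tgfa held GC boxes from bases -126 and -15 and Egfr held one from base -9, a motif in 35.7% of windows. The windows of Egf and Erbb4 shown here held none of the 7 motifs. A match is a description of the letters, and the absence of one says only that these letters are not in this window.

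The ligand Egf did not pass the test in any comparison. In WT it lay at 7567, 11310, 10100, 8529 and 10960 normalized counts with vehicle and at 12340, 13330, 12170, 7923 and 9945 with testosterone. ARNoC libraries held 9070, 10380, 10860, 8819 and 12660 with vehicle and 11040, 10540, 8764, 10490 and 14350 with testosterone. The groups overlapped widely, and the log2 change with testosterone was 0.21 in WT (95% interval -0.11 to 0.53) and 0.10 in ARNoC (-0.22 to 0.41). Egf shares 500 and 607 bases of exon with the antisense genes 6330410L21Rik and Gm42697, and since the strand setting of the counting is not given, reads of these stretches cannot be told apart. The same holds for 118 bases of Tgfa shared with Gm43917, 141 of Ereg with Gm19610 and 9 of Erbb2 with Mien1. Egf (chromosome 3, 129677565 to 129755316, mm10) is a protein-coding gene, as are the other 9.

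The 3 moderately expressed ligands Tgfa, Hbegf and Btc fell with testosterone in both genotypes, where 18.8% of all tested genes were called lower in WT and 16.8% in ARNoC. In bulk tissue, fewer cells of a type and less RNA per cell cannot be told apart. Tgfa, which encodes transforming growth factor alpha (chromosome 6, 86195223 to 86275719), lay at 232.4, 318.3, 294.1, 383.5 and 303.5 in WT with vehicle. With testosterone the WT values were 172.5, 183.9, 218.7, 182.1 and 203.9, all below every vehicle value. In ARNoC, Tgfa lay at 242.3, 247.6, 288.8, 360.9 and 338 with vehicle and at 200.9, 155.7, 202.6, 175.8 and 207.7 with testosterone, again without overlap. With edgeR's quasi-likelihood test and Benjamini-Hochberg adjustment over the 15261 genes, the log2 change was -0.66 ± 0.14 (SE, adjusted p 0.000606) in WT and -0.64 ± 0.13 (adjusted p 0.000848) in ARNoC. Tgfa therefore stood 1.59-fold lower in WT and 1.56-fold lower in ARNoC.

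Hbegf, the heparin-binding ligand (chromosome 18, 36504927 to 36515805), lay at 102.3, 96.59, 130.9, 138 and 114 in WT with vehicle and at 78.53, 58.93, 72.9, 71.65 and 88.2 with testosterone. The WT groups did not overlap. Its ARNoC values were 125.1, 79.16, 105.6, 118.2 and 135.2 with vehicle and 73.34, 50.34, 52.7, 89.98 and 67.66 with testosterone, where vehicle library 2 lay within the testosterone range. The log2 change was -0.64 ± 0.18 (adjusted p 0.00717) in WT and -0.74 ± 0.18 (adjusted p 0.00268) in ARNoC.

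Btc, or betacellulin (chromosome 5, 91357261 to 91402994), was the least abundant of the tested ligands. It lay at 68.18, 69.15, 73.73, 78.75 and 60.71 in WT with vehicle and at 44.65, 38.89, 54.28, 31.72 and 42.43 with testosterone, without overlap. In ARNoC it lay at 50.32, 63.33, 53.96, 109.8 and 57.41 with vehicle and at 44.64, 32.78, 51.53, 46.19 and 36.8 with testosterone, and the ranges met at ARNoC vehicle library 1 and ARNoC testosterone library 3. The log2 change was -0.72 ± 0.21 (adjusted p 0.00885) in WT and -0.64 ± 0.20 (adjusted p 0.0183) in ARNoC. ARNoC vehicle library 4 held the high value of 109.8, and without it the ARNoC change was -0.40 and no longer passed (adjusted p 0.0774).

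Areg and Ereg, the amphiregulin and epiregulin genes, which lie next to each other on chromosome 5 (91139599 to 91148432 and 91074622 to 91093646), were close to undetectable. Areg had 11 counts in WT testosterone library 5, 11 in ARNoC vehicle library 5, 1 in ARNoC vehicle library 2 and none in the other 17 libraries. The 0 counts of WT with vehicle, in 54120569 counts, allow up to 0.0554 CPM (3 counts, scaled by the library totals), and those of ARNoC with testosterone, in 68375384 counts, up to 0.0439 CPM, limits that cover counting error only. The 2 libraries with 11 Areg counts were the 2 with high Upk2 and Upk3a, and the part of urothelial cells in these Areg counts was not tested. Ereg had 2 counts in WT with vehicle, 5 in WT with testosterone, 2 in ARNoC with vehicle and 0 in ARNoC with testosterone. No fold change is given for either gene.

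**Figure D2:**
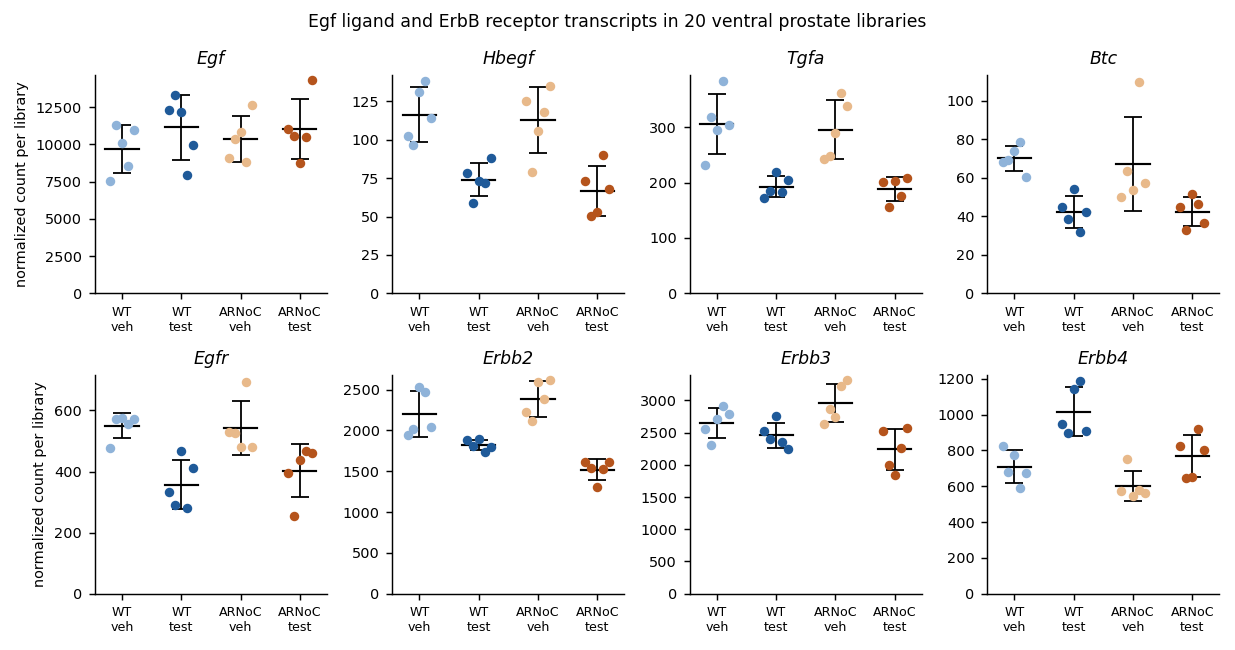
Normalized counts per library of the 8 tested members in WT and ARNoC with vehicle (veh) or testosterone (test), with each group's mean and SD in black and every axis starting at 0. Tgfa shows no overlap between vehicle and testosterone in either genotype, Erbb2 lies lowest in ARNoC with testosterone, and Erbb4 lies highest in WT with testosterone.

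Among the receptors, Egfr and Erbb2 fell and Erbb4 rose with testosterone in both genotypes, and Erbb3 fell in ARNoC. Egfr (chromosome 11, 16752203 to 16918158), the receptor of all 6 ligands, lay at 478.3, 571.8, 575, 555.9 and 571.9 in WT with vehicle and at 334.1, 291.1, 466.8, 280.7 and 411 with testosterone. Egfr in ARNoC stood at 530.6, 526.3, 481.8, 694.6 and 481.5 with vehicle and at 395.4, 254, 438, 466.7 and 461.7 with testosterone. Neither pair of groups overlapped, and the spread was wider with testosterone in WT. The log2 change was -0.62 ± 0.16 (adjusted p 0.00395) in WT and -0.42 ± 0.16 (adjusted p 0.0413) in ARNoC. The ARNoC call was close to the threshold and ended without ARNoC vehicle library 1 (log2 -0.43), 2 (-0.43) or 4 (-0.32) or ARNoC testosterone library 2 (-0.33).

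Erbb2 (chromosome 11, 98412470 to 98437716), the partner without a known ligand, lay at 1944, 2017, 2533, 2473 and 2037 in WT with vehicle and at 1877, 1806, 1898, 1740 and 1802 with testosterone. The WT groups did not overlap, although their closest values, 1944 and 1898, were near each other. In ARNoC it lay at 2231, 2119, 2591, 2379 and 2615 with vehicle and at 1609, 1535, 1305, 1528 and 1618 with testosterone, a clear gap. The log2 change was -0.26 ± 0.08 (adjusted p 0.0162) in WT, or 1.2-fold, and -0.65 ± 0.08 (adjusted p 4.3e-06) in ARNoC, or 1.57-fold. The WT call ended without WT vehicle library 3 (log2 -0.205) or 4 (-0.22). The ARNoC change of Erbb2 had the smallest adjusted p of any member in any comparison.

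Erbb3 (chromosome 10, 128567523 to 128589652), the neuregulin receptor of low kinase activity, lay at 2555, 2313, 2717, 2917 and 2782 in WT with vehicle and at 2525, 2407, 2756, 2361 and 2239 with testosterone, with overlap. The ARNoC libraries gave 2633, 2875, 2750, 3222 and 3324 with vehicle and 2527, 1992, 1848, 2264 and 2566 with testosterone, without overlap. The log2 change was -0.10 ± 0.09 (adjusted p 0.399, 95% interval -0.30 to 0.09) in WT and -0.40 ± 0.09 (adjusted p 0.00229) in ARNoC. A call in ARNoC beside none in WT does not show that the responses differ, and the test of that difference is given with the interaction.

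Erbb4 (chromosome 1, 68032186 to 69108059), a receptor of neuregulins and of Hbegf, Btc and Ereg, was the one member that rose. It lay at 822.3, 681.6, 774.6, 590.1 and 672 in WT with vehicle and at 945.5, 899.3, 1142, 1188 and 905.3 with testosterone, without overlap. In ARNoC it lay at 574.4, 751.7, 544.1, 578.5 and 562.1 with vehicle and at 822.7, 643.8, 653.5, 921.4 and 801.2 with testosterone, where vehicle library 2 lay within the testosterone range. The log2 change was 0.53 ± 0.12 (adjusted p 0.00152) in WT, or 1.44-fold, and 0.36 ± 0.12 (adjusted p 0.023) in ARNoC, or 1.28-fold. The ARNoC call ended without ARNoC vehicle library 1 (log2 0.34) or 3 (0.33) or ARNoC testosterone library 1 (0.30), 4 (0.25) or 5 (0.31). It also ended in a fit without the low-count filter (0.31), of the ARNoC groups alone (0.32) or without both vehicle libraries poor in fibroblast markers (0.34).

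The rise of Erbb4 depends on the scale. When libraries were scaled to their total counts, where the 10 most abundant genes hold a larger share with testosterone, the median of all genes moved by -0.42 in WT and -0.35 in ARNoC. On that scale the log2 change of Erbb4 was 0.11 in WT and 0.016 in ARNoC, neither called, Egf was at -0.22 and -0.25, and Erbb3 fell in WT as well (-0.53). The falls of Tgfa, Hbegf, Btc, Egfr and Erbb2 were called on either scale in both genotypes. The split of called genes was 3114 higher and 2871 lower in WT on the main scale and 1099 and 9120 on the total-count scale, and in ARNoC 2962 and 2565 against 1178 and 7548. All changes here are therefore relative to the typical gene of the library.

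Of the 8 tested members, 6 were called with testosterone in WT and 7 in ARNoC, where 39.2% and 36.2% of all tested genes were. In WT 1 was called higher and 5 lower, where 20.4% of all tested genes were called higher and 18.8% lower. In ARNoC 1 was called higher and 6 lower, against 19.4% and 16.8% of all genes. The groups did not overlap in WT for 1 member that was higher and 5 that were lower (15.2% and 11.9% of all genes, 27% in either direction). In ARNoC they did not overlap for 0 that were higher and 4 that were lower (12.4% and 10.7%, 23.1% in either direction). The median log2 change of the 8 was -0.44 in WT and -0.53 in ARNoC, against -0.02 and -0.01 over all tested genes. Without the 2 libraries rich in Upk3a, 6 members were called in WT and 7 in ARNoC, as with them.

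**Figure D3:**
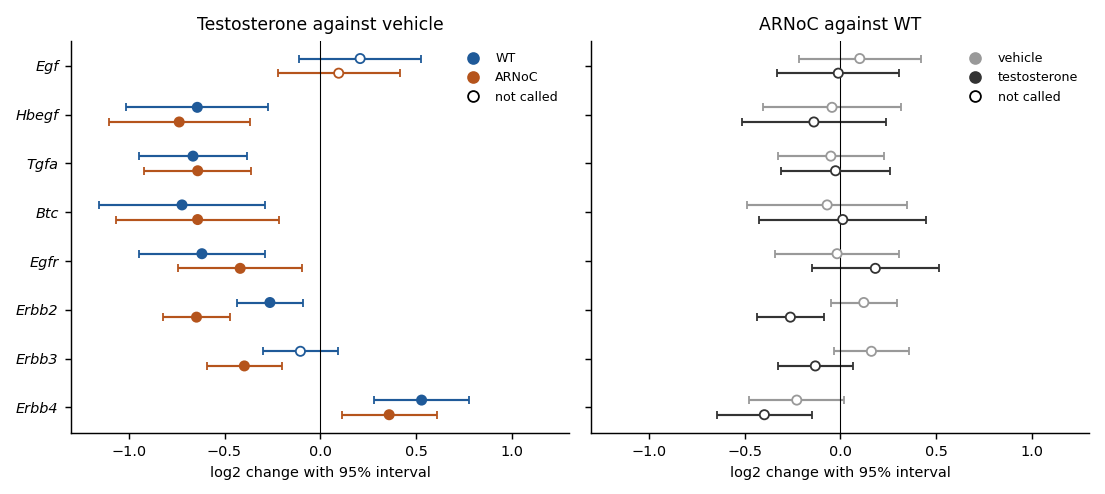
Log2 changes of the 8 tested members with 95% intervals, testosterone against vehicle on the left (WT and ARNoC) and ARNoC against WT on the right (with vehicle and with testosterone). Filled points passed the test at an adjusted p of 0.05, which 6 members did in WT and 7 in ARNoC on the left and 0 did on the right.

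Erbb4 took a larger share of the receptor transcripts with testosterone in both genotypes, given here as shares of the receptor sum per kilobase with no test. Erbb4 made up 5.96% ± 1.02 in WT with vehicle and 9.42% ± 1.16 with testosterone, and 4.69% ± 0.867 and 8.16% ± 0.796 in ARNoC (SD, n = 5 each). The lowest testosterone share lay above the highest vehicle share in both genotypes (8.61 against 7.34% in WT, 7.44 against 6.13% in ARNoC). Erbb2 went from 43.5% ± 2.39 to 40.2% ± 1.45 in WT and from 43.8% ± 2.72 to 38.4% ± 2.15 in ARNoC. Egfr went from 5.03% ± 0.477 to 3.6% ± 0.701 in WT and stood at 4.59% ± 0.72 and 4.69% ± 1.05 in ARNoC. Erbb3 held 45.6 to 48.7% on average in each group. The ratio of Erbb4 to Egfr per kilobase, which no scaling of the library affects, was 1.19 ± 0.235 with vehicle and 2.71 ± 0.723 with testosterone in WT, and 1.03 ± 0.195 and 1.80 ± 0.359 in ARNoC, without overlap in either genotype.

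**Figure D4:**
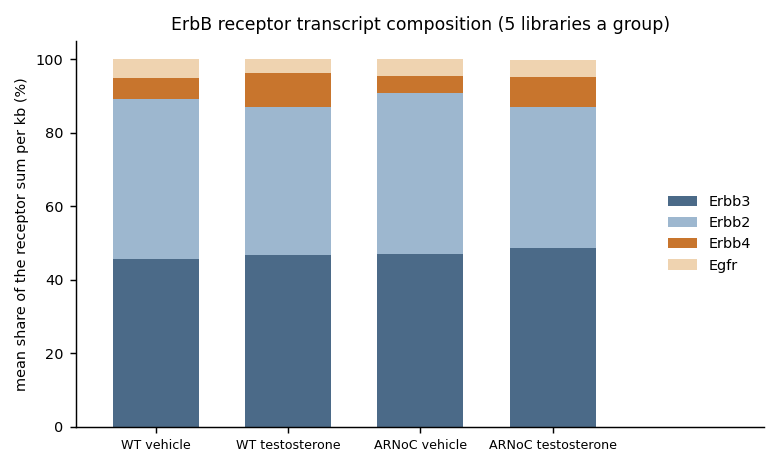
Mean share of each ErbB receptor in the receptor sum per kilobase of exon (percent, 5 libraries a group), as stacked bars that start at 0. Erbb3 and Erbb2 fill most of each bar, and the Erbb4 segment is wider in both testosterone groups (9.42% and 8.16%) than in the vehicle groups (5.96% and 4.69%).

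No member was called between ARNoC and WT with vehicle. By edgeR's quasi-likelihood test 0 of 8 were called, where 0.321% of all genes were (0.17% higher and 0.151% lower), 0 had an unadjusted p under 0.05, and 0 were called by DESeq2, limma-trend or limma-voom. The log2 differences lay between -0.23 for Erbb4 (95% interval -0.48 to 0.02) and 0.16 for Erbb3 (-0.03 to 0.36), and the groups overlapped for every member, where 1.76% of all genes did not overlap (0.95% higher and 0.806% lower). Intervals for the ligands were -0.22 to 0.42 for Egf, -0.33 to 0.23 for Tgfa, -0.41 to 0.32 for Hbegf and -0.49 to 0.35 for Btc, so differences of about this size are not excluded by these libraries.

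With testosterone, Erbb4 and Erbb2 had lower means in ARNoC than in WT (768 ± 118 against 1016 ± 138 and 1519 ± 127 against 1825 ± 63.8), at unadjusted p values that did not pass after adjustment over all genes. The log2 difference was -0.40 ± 0.12 for Erbb4 (p 0.00336, adjusted p 0.105) and -0.26 ± 0.08 for Erbb2 (p 0.00526, adjusted p 0.129). The Erbb2 values of ARNoC, at most 1618, all lay below those of WT, at least 1740, while the Erbb4 values overlapped, and 2.33% of all genes lay lower and 1.51% higher in ARNoC without overlap (3.85% in all). EdgeR called 0 of the 8, where 1.69% of all genes were called (0.681% higher and 1.01% lower), and 2 had an unadjusted p under 0.05. DESeq2 called Erbb4 alone (log2 -0.40, adjusted p 0.0468), and limma-trend and limma-voom called 0. The adjusted p of Erbb4 and the count of calls thus depend on the tool.

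The interaction, the ARNoC response minus the WT response, was not called for any of the 8 members by edgeR, DESeq2, limma-trend or limma-voom, and edgeR called 0% of all genes. Before adjustment 2 members had a p under 0.05 with edgeR, Erbb2 (log2 -0.38, 95% interval -0.63 to -0.14, p 0.00387, adjusted p 0.394) and Erbb3 (-0.29, -0.57 to -0.02, p 0.0384, adjusted p 0.556). The interval of Erbb4 was -0.52 to 0.18, that of Egfr -0.26 to 0.66 and that of Tgfa -0.37 to 0.42. Those of Hbegf, Btc and Egf were -0.62 to 0.43, -0.52 to 0.69 and -0.56 to 0.34. A p that misses the threshold does not show that the genotypes respond alike.

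Of the other ligands of the family, the neuregulin gene Nrg1 rose with testosterone in both genotypes from a low level. Nrg1 lay at 10.5 ± 5.91 normalized counts in WT with vehicle and 24.2 ± 6.12 with testosterone (log2 1.19 ± 0.36, adjusted p 0.0125), with overlap. In ARNoC it went from 9.46 ± 3.58 to 35.5 ± 9.44 (log2 1.91 ± 0.35, adjusted p 0.000229), without overlap. On the total-count scale the WT change was 0.76 and no longer called. Nrg2 (15.8 to 25.5 in group means) and Nrg4 (16.4 to 41.7) were not called in either genotype. Nrg4 shares 368 bases of exon with Fbxo22 and 177 with Gm15625, and Nrg1 482 with Gm26578, on the other strand. Without WT testosterone library 5, which held 47.43 of Nrg4 against at most 12.92 in the other 4, 1 gene of this list was called higher and 1 lower in WT. Epgn and Nrg3 did not pass the filter, and Nrg3 had no count in 3 of the 4 groups.

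Genes of ligand processing went both ways. Of 15 tested, 2 rose and 9 fell in WT (39.2% of all genes were called in either direction) and 3 rose and 4 fell in ARNoC (36.2%), with medians of -0.35 and -0.16. Rhbdl2, which encodes an intramembrane rhomboid protease, rose 5.86-fold in WT from 76.3 ± 26.4 to 445 ± 50.8 and 7.17-fold in ARNoC from 57.9 ± 21.3 to 416 ± 40.6 (adjusted p 2.24e-08 and 5.88e-09). Bace2, an aspartyl protease gene, fell 2.13-fold in WT and 2.38-fold in ARNoC. Adam17, the sheddase of Tgfa, Areg and Hbegf, fell in WT from 626 ± 72.5 to 453 ± 13.7 (log2 -0.46) and in ARNoC from 546 ± 46.6 to 462 ± 55.8 (-0.23, adjusted p 0.0448), a call that ended in 8 of the 20 fits that each left out 1 library. Adam8, a metalloproteinase gene, fell 3.2-fold in WT and 1.9-fold in ARNoC (adjusted p 0.0453), and Rhbdf2, an inactive rhomboid that carries Adam17 to the cell surface, fell 1.36-fold and 1.44-fold. Nrd1, the nardilysin gene, rose 1.23-fold in WT and 1.11-fold in ARNoC, where the call ended in 13 of the 20 fits without 1 library. Bace1 rose 1.26-fold in ARNoC. On the total-count scale Nrd1 fell in both genotypes (log2 -0.13 and -0.19) and Bace1 was at -0.013. The ARNoC count of this list went from 7 to 4 without ARNoC vehicle library 1, ARNoC testosterone library 2 or ARNoC testosterone library 5.

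Of 26 tested feedback inhibitors and turnover genes of the receptors, 0 rose and 8 fell in WT and 1 rose and 6 fell in ARNoC, with medians of -0.17 and -0.04. The called share was 30.8% in WT and 26.9% in ARNoC, against 39.2% and 36.2% of all tested genes. Socs5, of the suppressor of cytokine signalling family, fell in WT from 663 ± 66.5 to 402 ± 33.8 and in ARNoC from 575 ± 52.1 to 411 ± 13.5. Spry1, the Sprouty inhibitor of the Ras pathway, fell from 610 ± 45.1 to 402 ± 42.5 in WT and from 699 ± 116 to 356 ± 56.7 in ARNoC. Sh3kbp1, an endocytic adaptor of Cbl, fell 1.88-fold in WT and was 1.56-fold lower without a call in ARNoC (adjusted p 0.0628). Cblb, a ubiquitin ligase, fell 1.32-fold in ARNoC and was at log2 -0.095 in WT, not called. Lrig1, a membrane protein that lowers ErbB receptors, rose in ARNoC from 331 ± 36.3 to 508 ± 131 (log2 0.63, adjusted p 0.00481), a call that ended on the total-count scale (0.28).

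Of 31 tested adaptors and kinases, 6 rose and 8 fell in WT and 8 rose and 8 fell in ARNoC, with medians of 0.01 and -0.04. The called share was 45.2% in WT and 51.6% in ARNoC, against 39.2% and 36.2% of all tested genes. The small GTPase gene Nras rose 1.55-fold in WT and 1.53-fold in ARNoC, and the phosphatase gene Ptpn11 rose 1.22-fold and 1.19-fold, although Ptpn11 turned to log2 -0.14 and -0.093 on the total-count scale. Gab1, the docking protein between Egfr and phosphoinositide 3-kinase, fell from 2157 ± 132 to 1264 ± 73.6 in WT and from 2320 ± 296 to 1082 ± 216 in ARNoC. The kinase genes Akt2 and Src fell 1.25-fold and 1.18-fold in WT and 1.34-fold and 1.27-fold in ARNoC. Pik3r2, a regulatory subunit, fell 1.28-fold in WT and 1.14-fold in ARNoC. On the total-count scale the called genes were 2 higher and 22 lower in WT, where 1099 of all 15261 tested genes were called higher and 9120 lower.

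Of 15 tested transcripts known to rise after Egfr signalling, 1 rose and 8 fell in WT and 1 rose and 5 fell in ARNoC, with medians of -0.63 and -0.30. The called share was 60% in WT, against 39.2% of all tested genes, and 40% in ARNoC, near the 36.2% of all. The immediate-early genes Egr2 and Fos fell 5.45-fold and 3.67-fold in WT and 2.06-fold and 3.07-fold in ARNoC. Egr2 was near the floor, at 26.7 ± 11.1 with vehicle and 4.48 ± 2.75 with testosterone in WT and 18.7 ± 6.94 and 9.03 ± 4.63 in ARNoC. Its log2 change in WT ran from -2.95 to -1.71 over the alternative settings that kept all libraries or left out a pair. The Krüppel-like factor genes fell too, Klf6 by 1.37-fold in WT and 1.51-fold in ARNoC and Klf10 by 1.73-fold and 2.37-fold. Ccnd1, the cyclin D1 gene, rose 1.73-fold in WT and 1.41-fold in ARNoC. On the total-count scale neither Ccnd1 change was called (log2 0.37 and 0.14), and the ARNoC call also ended in 6 of the 20 fits that left out 1 library. By edgeR 0 genes of these 5 lists were called in either genotype comparison or in the interaction, and at most 4 of a list had an unadjusted p under 0.05. Between genotypes with testosterone, that count of 0 depends on the settings. It became 1 for adaptors and kinases in 8 of 11 alternative settings, edgeR fits among them, and in 5 of the 20 fits without 1 library (libraries 4 and 5 of WT with testosterone, 3 and 5 of ARNoC with vehicle and 4 of ARNoC with testosterone). It became 1 for feedback genes in 5 of 11 settings and in 2 of the 20 fits (WT testosterone library 4 or ARNoC testosterone library 5).

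**Figure D5:**
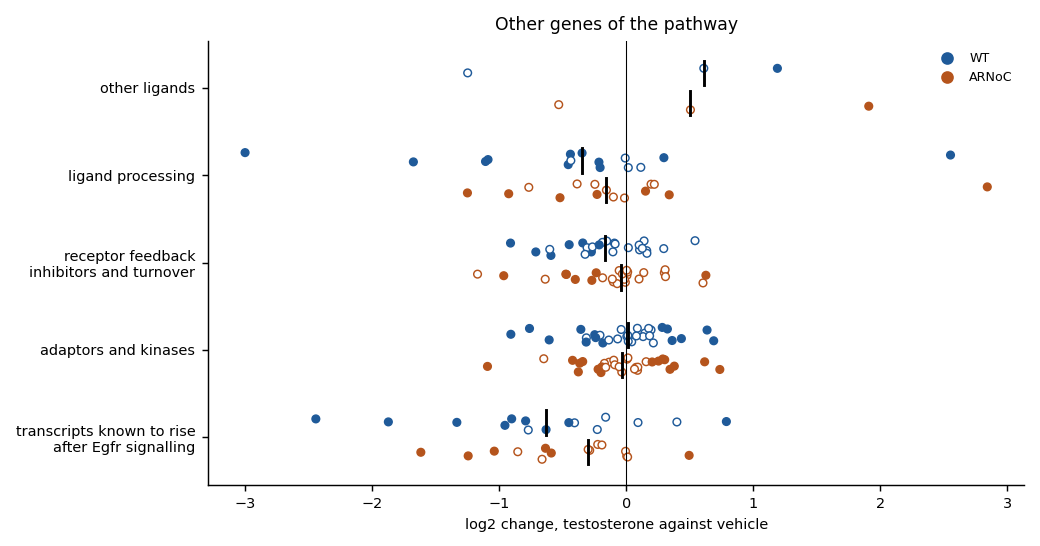
Log2 changes with testosterone of the other genes of the pathway in WT and ARNoC, with 1 point per tested gene, filled where called, and a black bar at the median of each list. The median of the transcripts known to rise after Egfr signalling is -0.63 in WT and -0.30 in ARNoC, and Rhbdl2 lies farthest to the right in both genotypes.

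Marker genes of other cell types are given beside these changes, to be read against the 20.4% of all tested genes called higher and 18.8% called lower in WT and the 19.4% and 16.8% in ARNoC. Of 11 tested myeloid markers 11 fell in WT and 9 in ARNoC, and their summed normalized counts ran from 3201 to 18150 with vehicle and 1513 to 3364 with testosterone in WT, and from 2797 to 12270 and 2629 to 4979 in ARNoC. Of 8 basal epithelial markers 4 fell in WT (sums of 3841 to 4964 and 3147 to 5150) and 5 in ARNoC (3100 to 6311 and 2871 to 3478). Of 9 luminal markers 2 rose and 4 fell in each genotype, with sums between 55330 and 81540. Of 10 fibroblast markers 1 rose and 5 fell in WT (sums of 20000 to 77370 with vehicle and 19250 to 40890 with testosterone) and 1 fell in ARNoC (9071 to 51990 and 14530 to 30060). Of 8 smooth muscle markers 1 rose in WT and 5 in ARNoC, and of 6 tested lymphocyte markers 5 and 4 fell. Among 8 endothelial markers 3 fell in WT and 0 in ARNoC, with median log2 changes of -0.95 and -0.14. Among 6 adipocyte markers 1 fell in WT and 0 in ARNoC, with medians of -1.08 and -0.24. Of 4 tested urothelial markers 1 rose and 1 fell in WT. Sums over all 5 listed urothelial genes, which include the untested Upk3a, overlapped in WT (7778 to 12850 with vehicle and 8445 to 11090 with testosterone). In ARNoC 1 fell, and these sums did not overlap (9771 to 13300 and 4081 to 7178). Most of each sum was Upk1a and Upk1b, and mean log2 values of the 4 tested markers overlapped in ARNoC (7.508 to 9.966 and 6.95 to 8.236). Sums over the 6 listed nerve and glia markers did not overlap in WT (1550 to 1814 and 1165 to 1318) or in ARNoC (1429 to 1682 and 946.2 to 1188). Of the 5 tested, 1 fell in WT and 2 in ARNoC. Mean log2 values of these 5 overlapped between vehicle and testosterone in WT (5.427 to 6.056 and 4.901 to 5.853) and in ARNoC (4.937 to 6.335 and 5.191 to 5.977). The part of these cell types in the changes of the 7 called members, Erbb2 and Erbb3 included, was not tested.

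Among all tested genes, those most like a member across the 20 libraries were named for the 3 members whose group means ranged most on the log2 scale, Hbegf (0.81), Erbb4 (0.75) and Btc (0.73). Likeness was the root mean square difference of centred log2 values. For Erbb4 the nearest were Helz (0.14), N4bp2 (0.16) and Prr14l (0.17), where Erbb4 itself varied by 0.33 about its mean. For Hbegf they were Klhdc8b (0.18), Cep89 (0.19) and Nfib (0.20), against 0.43, and for Btc Rasa2 (0.19), Zfp90 (0.21) and Mbnl1 (0.21), against 0.43. These are descriptions over libraries that share their groups and size factors.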

How the data were processed

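Total RNA of snap-frozen ventral prostate went into Illumina TruSeq libraries, per the labels' protocols. Per the submitters' processing notes, FastQC 0.11.7, HISAT2, SAMtools 1.5, HTSeq and DESeq2 were used with build mm10. Annotation, strand setting and filters: not given in the sources used here. A deposited table has whole-number counts by gene symbol. The deposited signal values are normalized counts, and the deposited ratio values are the size factors, whose product gave the count back within 4.2e-09 (100% whole within 1e-06).

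The 15261 genes that reached 10 normalized counts in 5 or more of the 20 libraries entered edgeR 4.0.16 (R 4.3.3), using TMM scaling, a mean for each group and the quasi-likelihood test. Benjamini-Hochberg adjustment ran over all of them, and an adjusted p under 0.05 was called. DESeq2 1.42.0 and limma 3.58.1 were alternatives, beside other scalings, filters and sets of libraries. The test was checked on simulated data. Exon lengths and coordinates came from GENCODE M21 (mm10). Figures used matplotlib 3.10.9. Members, pathway and marker lists were chosen with earlier results of these data known. In each list the rule named the 3 called genes with the smallest adjusted p in each direction per testosterone comparison. A gene that this rule names is not reported here. Replicate numbers follow accession order and pair nothing. Alignment was not repeated.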

Additional observations from a re-analysis of the deposited data

Results flagged for a closer look

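In 37 groups of 5 libraries with any spread, the highest or lowest library stood apart from the others in 8. Its gap to the nearest then took over 0.71 of the range of the group, where chance gives about 1 in 20 groups of normally distributed values. That rate does not hold for Areg and Ereg, where a single library with counts beside zeros passes by construction. Areg was at 9.153 in WT testosterone library 5 (0 in the other 4) and at 10.19 in ARNoC vehicle library 5 (next 0.6333), the 2 libraries rich in Upk2 and Upk3a. Ereg was at 1.853 in WT vehicle library 4, which is 2 counts.

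ARNoC vehicle library 4 was highest for Btc (109.8, next 63.33) and for Egfr (694.6, next 530.6). That library also had the highest marker scores of its group, as mean log2 values, for fibroblasts (11.587), smooth muscle (11.476) and myeloid cells (9.429). The same held for endothelium (6.966), nerve and glia (6.335) and lymphocytes (4.705). Its scores were the lowest of the group for adipocytes (6.082) and prostate secretion (12.06). The part of these cell types in the Btc and Egfr values was not tested. WT vehicle library 1 was lowest for Egfr (478.3, next 555.9), ARNoC testosterone library 3 lowest for Erbb2 (1305, next 1528), and ARNoC vehicle library 2 highest for Erbb4 (751.7, next 578.5).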

How the results depend on the processing

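Over 31 alternative settings, 1171 of 1232 pairs of a member's change and a setting kept direction and side of the threshold. The library pair rich in Upk3a was left out as an alternative chosen after seeing the data. Total-count scaling gave Egf -0.22 in WT, -0.25 in ARNoC and 0.079 between genotypes with testosterone, Tgfa 0.058 there, Erbb3 -0.53 in WT, Erbb4 0.11 in WT and 0.016 in ARNoC, Nrd1 -0.13 and -0.19, Ptpn11 -0.14 and -0.093, and Bace1 -0.013 in ARNoC. Its called counts were 20 of 26 feedback genes in WT and 17 in ARNoC, and 24 of 31 adaptors in WT. Over all 15261 tested genes this scale called 10219 in WT and 8726 in ARNoC. It moved the median log2 change of all genes by -0.42 and -0.35. Erbb4 in ARNoC was not called without the low-count filter (0.31), in the compared groups alone (0.32) or without both fibroblast-poor vehicle libraries, WT vehicle library 2 and ARNoC vehicle library 5 (0.34), and the cause was not tested. These 2 had the lowest summed fibroblast markers of their groups (20000 and 9071). In smooth muscle markers WT vehicle library 2 was at the median of its group (19840, range 11500 to 23770). DESeq2 called 1 member, Erbb4 (-0.40), between genotypes with testosterone. Without both fibroblast-poor libraries Egfr between vehicle groups was 0.036 and the Hbegf interaction 0.042, and without both Upk3a-rich libraries 0.019 and 0.059. Over all genes, edgeR called 49 between vehicle groups, DESeq2 137, a fit of those groups alone 19 and one without the Upk3a-rich libraries 29. With testosterone edgeR called 104 higher and 154 lower in ARNoC, DESeq2 498 in all, and total-count scaling 336 higher and 101 lower. In the interaction edgeR called 0 (1306 at an unadjusted p under 0.05), DESeq2 29, total-count scaling 2, no filter 2, limma-trend 1 with a pseudocount of 1 and 0 with 5, and limma-voom 0. The interaction has no value in a fit of compared groups alone.

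Leaving out 1 library at a time gave 5 to 6 members called in WT, 5 to 7 in ARNoC and 0 in the other comparisons. Log2 changes with testosterone then ran from -0.31 to -0.205 for Erbb2 in WT, and in ARNoC from -0.053 to 0.18 for Egf, -0.76 to -0.40 for Btc, -0.52 to -0.32 for Egfr and 0.25 to 0.45 for Erbb4. Uncalled changes crossed 0: between vehicle groups Hbegf (-0.12 to 0.063), Tgfa (-0.14 to 0.044), Btc (-0.31 to 0.018) and Egfr (-0.12 to 0.021), with testosterone Egf (-0.13 to 0.061), Tgfa (-0.069 to 0.032) and Btc (-0.084 to 0.10), and in the interaction Tgfa (-0.069 to 0.11) and Btc (-0.015 to 0.32). No paired analysis was possible because the labels give no replicate numbers that link libraries of different groups. Btc and Hbegf rest on 27 to 105 and 43 to 174 counts per library, which limits their precision.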
